A study of Mus musculus with 18 samples.

Results

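The translation efficiency of mouse astrocytes after 48 h of inflammatory cytokines was set against that after 24 h, for each of the 12205 genes of 12205 in the authors' deposited table. The value described is the difference between the translation efficiency (TE) value at 48 h and the TE value at 24 h. Both TE values are log2 values against the same untreated cells, so a positive difference means higher TE at 48 h, and 1 on this scale is 2-fold. The cells were WT primary astrocytes of strain C57BL, taken from newborn animals (P0-P2) of both sexes pooled, thawed and then plated. In the 48 h group, cultures grown for 72 h received TNFα (20 ng/ml) together with IL-1β (0.25 ng/ml) for 48 h, and in the 24 h group cultures grown for 96 h received the same doses for 24 h. Untreated cultures were kept for 120 h, and no group differs from another in genotype. Each group had 3 batches (A, B and C), named as biological repetitions, with 1 RNA-seq and 1 ribosome profiling library per batch, which makes 12 libraries at 48 h and 24 h of 18 in all.

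The table holds 1 value per gene and comparison, with the batches already combined, so no difference could be set against the spread between batches and no test was possible. Genes were counted by size, and gene lists are described by their counts and medians beside those of all genes. Levels are not part of the values used here, so the labelled cell type could not be checked by level, and how deeply each library was sequenced is unknown. The astrocyte genes Gfap, Aqp4, Aldh1l1, Slc1a2, Slc1a3, S100b, Gja1 and Sox9 each had a row. In bulk libraries, fewer cells of a type and less RNA per cell cannot be told apart.

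Ribosome profiling sequences the mRNA fragments that ribosomes shield from RNase, and TE is the footprint value of a gene relative to its RNA value. It rises when more ribosomes sit on each mRNA, or when they move more slowly, and it falls when mRNA accumulates without ribosomes. The mRNAs of ribosomal proteins and of several translation factors carry an oligopyrimidine tract at their very start (TOP mRNAs). Through this tract mTOR signalling and the La-related protein LARP1 are known to control their translation as a group, so that cells can scale ribosome production up or down. Inflammatory cytokines act on astrocytes through NF-kB and, by way of secreted interferon, through STAT factors, which switch on chemokine, acute phase and antiviral genes.

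Across all genes the TE difference was centred near 0, with a median of 0.009 and quartiles of -0.15 and 0.16. TE was higher at 48 h by at least 1 in 65 genes (0.533%) and lower by at least 1 in 79 genes (0.647%). At a size of 0.5, or 1.41-fold, 438 genes (3.59%) were higher and 561 genes (4.6%) were lower, and 5898 genes (48.3%) lay below 0. RNA differences of at least 1 between 48 h and 24 h were seen in 77 genes upward (0.631%) and 113 downward (0.926%), and footprint differences in 89 (0.729%) and 130 (1.07%). Most individual genes therefore had TE values at 48 h and 24 h within 0.5 of each other.

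Ribosomal protein mRNAs stood lower in TE at 48 h as a group. Of the 82 measured, 75 (91.5%) lay below 0, 30 (36.6%) lay at -0.5 or lower, 5 (6.1%) lay at -1 or lower, and 0 lay at 0.5 or higher. The shares over all genes were 48.3%, 4.6%, 0.647% and 3.59%. Their median TE value against untreated cells was 0.10 at 48 h and 0.51 at 24 h, with 20 genes at 0.5 or more at 48 h and 42 at 24 h. The median TE difference was -0.38 for the 34 proteins of the small subunit and -0.39 for the 48 of the large subunit.

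The annotated starts of some of these genes show the tract after which TOP mRNAs are named. The sequences below are from RefSeq on GRCm38.p6 and run 5′ to 3′ on the coding strand, with 10 bases before the annotated start and 20 from it on. Capitals mark the unbroken run of C and T that begins with C at that start. The ribosomal protein genes below and the initiation factor gene Eif3f are shown because they carry the tract and span the range of TE differences.
Rps15a: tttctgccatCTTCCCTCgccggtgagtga
Rps27: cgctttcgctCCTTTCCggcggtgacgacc
Fau: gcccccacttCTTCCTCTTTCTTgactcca
Rps6: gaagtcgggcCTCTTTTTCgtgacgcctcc
Eif3f: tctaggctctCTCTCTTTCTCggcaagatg
Rps10: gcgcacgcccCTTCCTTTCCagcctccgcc
They lie at chr7:118116128-118116157 (minus strand) for Rps15a, chr3:90213629-90213658 (minus) for Rps27, chr19:6057937-6057966 (plus) for Fau, chr4:86857348-86857377 (minus) for Rps6, chr7:108934405-108934434 (plus) for Eif3f and chr17:27635225-27635254 (minus) for Rps10. The TE difference was -1.04 for Rps15a, -1.03 for Rps27, -0.78 for Fau, -0.63 for Rps6, -0.30 for Eif3f and 0.24 for Rps10. Among the genes shown, Rps10 alone lay above 0.

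A start was scored as TOP-like where base 1 of the transcript was C and the 4 bases after it were each C or T, read on the coding strand alone. By this rule 15 of the 62 ribosomal protein genes with a promoter window (24.2%) had a TOP-like start, against 283 of 9730 measured genes with a window (2.91%) and 823 of 32851 windows in all (2.51%). Ribosomal protein genes with such a start had a median TE difference of -0.40 (14 of 15 below 0), and those without it had -0.38 (44 of 47 below 0). Among other genes, the median was -0.007 for 268 with a TOP-like start and 0.011 for 9400 without one. A gene can have several annotated starts, and it was counted as TOP-like where any of them met the rule. A start that misses the tract by a base is scored as lacking it.

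Single members show how footprints and RNA made up the difference. Rps15a had TE values of -0.62 at 48 h and 0.41 at 24 h in the authors' deposited table. Its footprints stood at 0.21 at 48 h and 0.95 at 24 h, and its RNA at 0.79 at 48 h and 0.55 at 24 h, in the authors' deposited table. So Rps15a had lower footprints and higher RNA at 48 h. Rps20 followed with -0.46 at 48 h and 0.47 at 24 h, and Rpl32 of the large subunit with -0.77 at 48 h and 0.05 at 24 h, in the authors' deposited table. These 3 genes stood below untreated cells in TE at 48 h and above them at 24 h.

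Lower footprints beside higher RNA were common in the group. Footprint differences had a median of -0.25 and lay below 0 in 70 of 82 ribosomal protein genes, while RNA differences had a median of 0.09 and lay above 0 in 58. The medians over all genes were 0.003 for footprints and -0.005 for RNA. Rps10 had TE values of 1.11 and 0.87 at 48 h and 24 h, and Rps29 0.90 and 0.70, in the authors' deposited table. Rpsa was at 0.53 at 48 h and 0.84 at 24 h in the authors' deposited table. Rps10 and Rpsa are among the genes that the study singled out. Other members above 0 were Rpl6 (0.02), Rpl8 (0.06), Rpl18 (0.08) and Rpl37a (0.10) by TE difference.

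**Figure D1:**
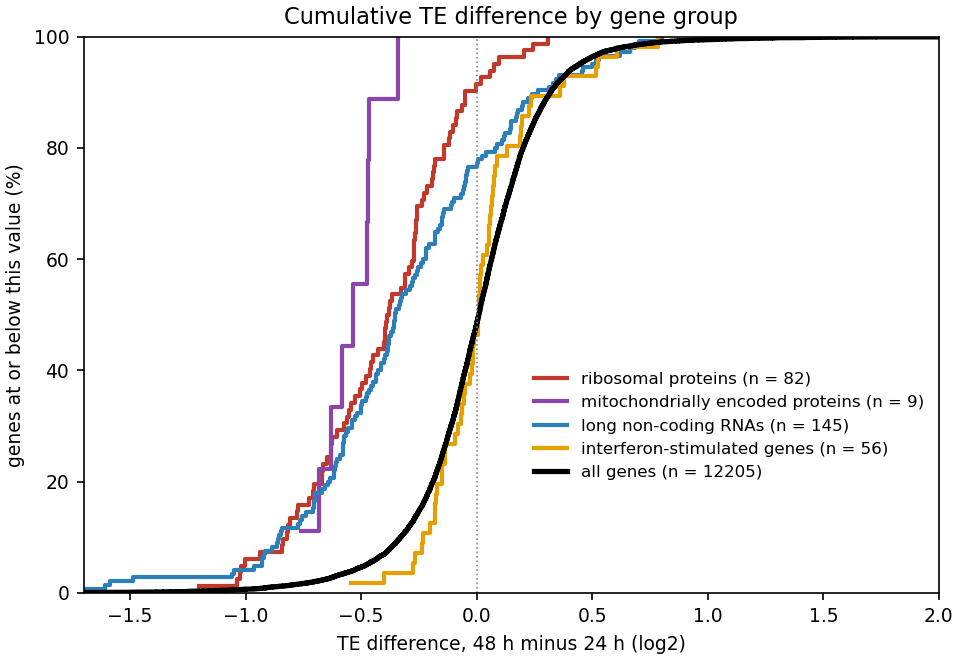
Cumulative share of genes (vertical axis, %) at or below each TE difference, 48 h minus 24 h (horizontal axis, log2), for ribosomal proteins, mitochondrially encoded proteins, long non-coding RNAs, interferon-stimulated genes and all genes. The first 3 curves lie left of all genes, with medians of -0.38, -0.53 and -0.35 against 0.009, while interferon-stimulated genes follow all genes with a median of 0.01.

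Other genes of like span or like TE at 24 h were centred near 0. Other protein-coding genes with a span of 4440 bases or less, the upper quartile of ribosomal protein genes, numbered 905 and had a median TE difference of -0.006, with 7.18% at -0.5 or lower. The 3109 other genes whose TE value at 24 h lay between the quartiles of ribosomal proteins (0.20 and 0.81) had a median difference of 0.004, with 7.08% at -0.5 or lower. The TE value at 24 h is itself subtracted in the difference, so those genes were picked on a value that enters it. Gene span includes introns and is not mRNA length. Whether span or TE at 24 h has a part in the ribosomal protein result was not tested. Of the ribosomal protein genes, 31 hold a small nucleolar RNA gene inside their span, and these had a median difference of -0.38 against -0.39 for the 51 without one. Many ribosomal protein genes have processed pseudogenes that can take up reads, which leaves their values uncertain.

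RNAs that are not known to code for proteins stood lower at 48 h as well. The 145 long non-coding RNAs by RefSeq annotation had a median TE difference of -0.35, with 111 (76.6%) below 0 and 48 (33.1%) at -0.5 or lower, against 5732 (47.9%) and 491 (4.1%) of 11973 protein-coding genes. Their median TE value was -0.19 at 48 h and 0.11 at 24 h. Footprints of these RNAs differed by a median of -0.14 and RNA by 0.085, again in opposite directions. Malat1, a nuclear RNA, had TE values of -1.23 at 48 h and -0.30 at 24 h in the authors' deposited table, a difference of -0.93 where footprints minus RNA would give -0.33. Gas5, a TOP-class transcript that hosts small nucleolar RNAs and is degraded during translation, had -0.94 at 48 h and -0.27 at 24 h in the authors' deposited table. Neat1, the scaffold of paraspeckles, lay on the other side of 0 by its difference, with TE values of -0.19 at 48 h and -0.39 at 24 h in the authors' deposited table. Whether the shift of these RNAs has a part in the ribosomal protein result was not tested.

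The mitochondrially encoded mRNAs, which are translated by mitochondrial ribosomes, all lay below 0 in the 9 of 13 that were measured. Their median TE difference was -0.53, and their median TE value was -0.73 at 48 h and -0.09 at 24 h. mt-Nd4, a subunit of complex I, had TE values of -0.73 at 48 h and -0.11 at 24 h in the authors' deposited table. mt-Cytb of complex III had -0.79 at 48 h and -0.26 at 24 h, and mt-Co1 of complex IV had -0.84 at 48 h and -0.37 at 24 h, in the authors' deposited table. The remaining differences ran between -0.76 for mt-Atp8 and -0.34 for mt-Nd3, but footprints minus RNA would give -0.05 for mt-Atp8 and -0.15 for mt-Nd3. The deposited TE value lay within 0.1 of footprints minus RNA at both times in 4 of the 9 genes, whose median difference was -0.50, and computed that way the median of all 9 was -0.44. RNA was the larger side here, with differences above 0 in all 9 and a median of 0.31, against a median of -0.12 in footprints. Over all genes these medians were -0.005 in RNA and 0.003 in footprints. The 2 ribosomal RNAs of the same genome are not translated, and they lay lower too: mt-Rnr1 had TE values of -1.01 at 48 h and -0.39 at 24 h, and mt-Rnr2 -1.77 at 48 h and -1.08 at 24 h, in the authors' deposited table. For mt-Rnr1 the TE difference was -0.61 where footprints minus RNA would give -0.30, and for mt-Rnr2 both gave -0.69. RNA differed by 0.19 for mt-Rnr1 and 0.47 for mt-Rnr2, and their part in the mRNA result was not tested.

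Nuclear genes for the same respiratory chain had medians nearer 0. Over all genes, 3.59% lay at 0.5 or higher and 4.6% at -0.5 or lower. The 37 complex I subunits had a median TE difference of 0.01, with 2 at 0.5 or higher and 2 at -0.5 or lower, and median TE values of 0.28 at 48 h and 0.35 at 24 h. Members spread to both sides: Ndufb7 had TE values of 1.32 at 48 h and 0.79 at 24 h, and Ndufs5 -0.17 at 48 h and 0.36 at 24 h, in the authors' deposited table. Subunits of complexes II to V (40 genes) had a median of -0.12, with 28 below 0. Sdhb of succinate dehydrogenase stood at 1.01 at 48 h and 0.54 at 24 h, and Atp5e of ATP synthase at -0.16 at 48 h and 0.41 at 24 h, in the authors' deposited table. Of 4 subunits that the study named, Uqcr11 differed by -0.07, Ndufa11 by -0.22, Uqcrq by 0.30 and Atp5d by 0.40. The 75 mitochondrial ribosomal proteins, which are nuclear genes and build the ribosome of that organelle, had a median of 0.01, with 1 at 0.5 or higher and 6 at -0.5 or lower.

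**Figure D2:**
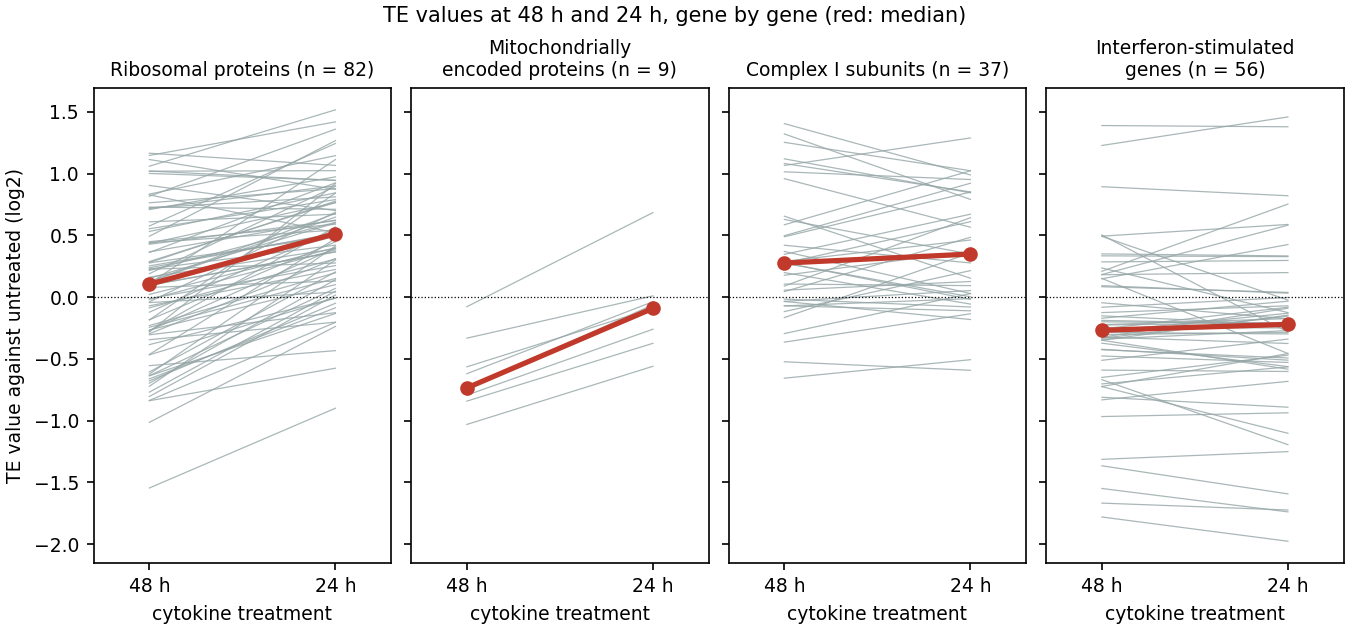
TE value against untreated cells (vertical axis, log2) at 48 h (left) and 24 h (right) of each panel, with 1 grey line per gene and the median in red, for 4 gene groups. The medians are 0.10 at 48 h and 0.51 at 24 h for ribosomal proteins, -0.73 and -0.09 for mitochondrially encoded proteins, 0.28 and 0.35 for complex I, and -0.27 and -0.22 for interferon-stimulated genes.

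The list of translation factors of the TOP class also lay mostly below 0, with a median nearer 0 than that of ribosomal proteins. It is not limited to translation factors, since it also holds Nap1l1 (-0.11). Of 16, 14 lay below 0 and the median was -0.26, but 1 alone passed -0.5, where the share over all genes was 4.6%. That gene was the elongation factor subunit Eef1b2, with TE values of 0.17 at 48 h and 0.73 at 24 h in the authors' deposited table. The elongation factor Eef1a1, which brings tRNAs to the ribosome, had -0.34 at 48 h and 0.12 at 24 h in the authors' deposited table. Pabpc1, the poly(A)-binding protein, had -0.62 at 48 h and -0.33 at 24 h, and Eef2, which drives translocation, 0.20 at 48 h and 0.28 at 24 h, in the authors' deposited table. RNA differences of the 16 genes had a median of 0.12 and footprint differences one of -0.08. Eif3l (0.12) and Eef1d (0.20) were the members above 0.

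Initiation factors outside that class were centred near 0, with a median of -0.04 over 33 genes. Eif1, which guards start codon choice, had TE values of -0.51 at 48 h and 0.16 at 24 h in the authors' deposited table, the lowest difference of its list at -0.66. Subunits of eIF2B, the exchange factor that reloads eIF2 with GTP, stood highest. Eif2b4 was at 0.35 at 48 h and -0.24 at 24 h, and Eif2b2 at 0.81 at 48 h and 0.28 at 24 h, in the authors' deposited table. Aminoacyl-tRNA synthetases had a median difference of 0.10, and 17 of 23 lay above 0, with RNA lower at 48 h in 20 of 23. Their median RNA difference was -0.14, against -0.005 over all genes.

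The integrated stress response acts through phosphorylation of eIF2 and raises translation of mRNAs with upstream reading frames, of which Atf4 is the best known. Atf4 had TE values of 0.16 at 48 h and 0.70 at 24 h in the authors' deposited table, a difference of -0.54. Atf5, regulated in a like way, had -0.09 at 48 h and 0.37 at 24 h in the authors' deposited table. Ddit3, which codes for CHOP, differed by -0.27. These 3 were the lowest of the 27 genes of the response. Footprints of Atf4 were at 1.03 at 48 h and 1.77 at 24 h in the authors' deposited table, and its RNA differed by -0.21. The list as a whole had a median of -0.08, and Chac1, a target of the pathway, stood at the other end with a difference of 1.05, but its 3 values do not add up as defined further on. ER chaperones and genes of the unfolded protein response had a median of 0.08, with 18 of 27 above 0. The ER protein gene Creld2 (0.53) alone lay past 0.5, where the share over all genes was 3.59%.

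Interferon-stimulated genes lay lower at 48 h in RNA and footprints by like amounts, and their TE values at 48 h lay near those at 24 h. Over 56 of these genes, the median RNA difference was -0.84 and the median footprint difference -0.85. At -1 or lower were 22 of them in RNA, where the share over all genes was 0.926%, and 23 in footprints, where it was 1.07%. Their median TE difference was nevertheless 0.01, with 30 members above 0 and 26 below. Cxcl10, a chemokine induced by interferon, had TE values of -0.48 at 48 h and -0.51 at 24 h in the authors' deposited table, although its footprints and RNA differed by -2.08 and -2.10. Irf7, which amplifies interferon signalling, had -0.67 at 48 h and -1.19 at 24 h in the authors' deposited table. Ifit3, an antiviral RNA-binding protein, had -0.33 at 48 h and -0.09 at 24 h in the authors' deposited table.

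**Figure D3:**
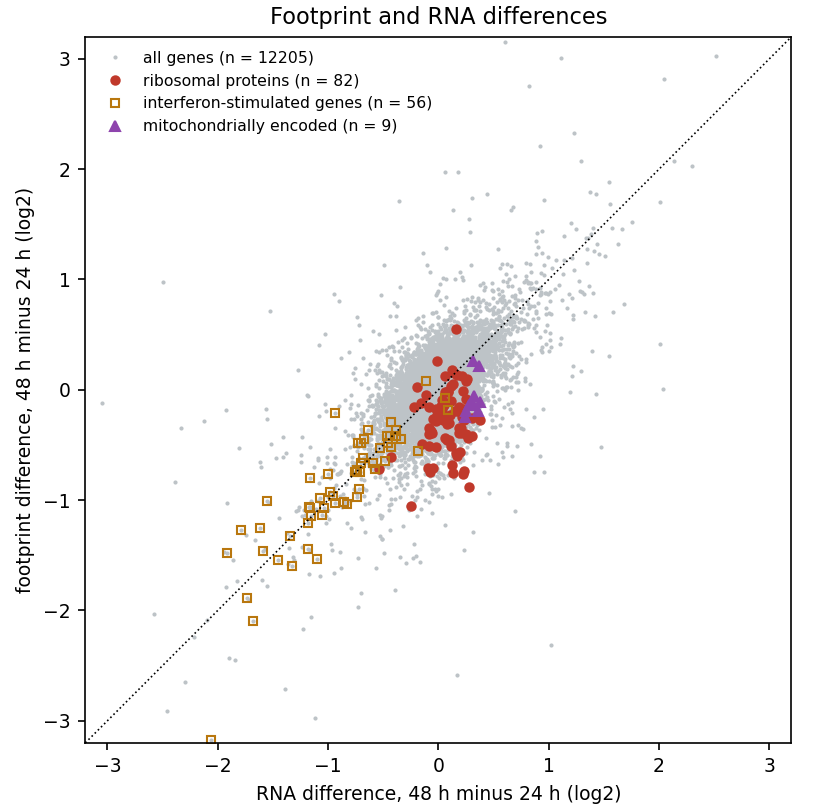
Footprint difference (vertical axis) against RNA difference (horizontal axis), both 48 h minus 24 h on the log2 scale, with 1 point per gene and 14 genes outside the axes at 3.2. Points below the dotted line of equality have lower TE at 48 h. Interferon-stimulated genes run along the line down to the lower left, while most ribosomal proteins and mitochondrially encoded proteins lie below it, with RNA differences above 0 in 58 of 82 and in 9 of 9.

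Chemokines had a median TE difference of -0.09 over 17 genes, and 12 lay below 0. Of all genes, 48.3% lay below 0, 4.6% at -0.5 or lower and 3.59% at 0.5 or higher. By the deposited TE values, Ccl5, which recruits T cells, was the one member past 0.5. Its TE values were -2.68 at 48 h and -1.82 at 24 h in the authors' deposited table. Its footprints stood at 6.64 at 48 h and 8.70 at 24 h, and its RNA at 9.30 at 48 h and 10.45 at 24 h, in the authors' deposited table. Ccl5 therefore remained far above untreated cells in both. Of the 17 chemokines, 9 had values that add up as defined further on. Cxcl9 did not, with TE values of -5.19 at 48 h and -4.82 at 24 h in the authors' deposited table. Its footprints stood at 1.82 at 48 h and 6.77 at 24 h in the authors' deposited table. Its RNA stood at 9.04 at 48 h and 11.99 at 24 h. Footprints minus RNA would place Cxcl9 and Cxcl11 past 0.5 on the lower side as well. Ccl2, which attracts monocytes, was at -0.55 at 48 h and -0.54 at 24 h, and Cxcl5 at -2.65 at 48 h and -2.40 at 24 h, in the authors' deposited table. Cxcl12, the ligand of CXCR4, went to the other side of 0, with -0.09 at 48 h and 0.27 at 24 h in the authors' deposited table.

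Other inflammatory lists had medians near 0. NF-kB subunits and feedback genes had a median of 0.10 with 24 of 32 above 0. Nfkbia, the inhibitor that NF-kB induces, had TE values of -0.04 at 48 h and -0.22 at 24 h, and Nfkbib, its paralogue, 1.18 at 48 h and 0.71 at 24 h, in the authors' deposited table. MHC class I presentation (20 genes) had a median of 0.05, complement (16) one of 0.06 and acute phase and secreted defence genes (17) one of 0.03. In the last list the median RNA difference was 0.54 and the median footprint difference 0.60, so higher RNA at 48 h came with higher footprints. Hp, which codes for haptoglobin, had TE values of 0.03 at 48 h and -0.44 at 24 h in the authors' deposited table, and Lcn2, the iron-binding lipocalin, -0.41 at 48 h and -0.44 at 24 h. Saa3, an acute phase protein, stood at -3.33 at 48 h and -3.61 at 24 h, and Nos2 at -1.71 at 48 h and -1.75 at 24 h, in the authors' deposited table. C3 was at -0.19 at both times, Il6 at -1.72 at 48 h and -1.61 at 24 h, Irak3 at -0.60 at 48 h and -0.52 at 24 h, and Pik3r5 at -0.16 at 48 h and -0.07 at 24 h, in the authors' deposited table. Copies of the Saa, Serpina3 and H2 families are near-identical, and their reads may be split between members.

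Astrocyte genes were also centred near 0. Homeostatic genes had a median TE difference of 0.04 over 34, and reactive genes one of 0.03 over 35, with 0 of the reactive genes past 0.5 either way. The shares over all genes were 3.59% at 0.5 or higher and 4.6% at -0.5 or lower. Gfap, the intermediate filament of astrocytes, had TE values of -0.07 at 48 h and -0.37 at 24 h in the authors' deposited table. Gja1, the main astrocyte connexin, had -0.07 at 48 h and 0.20 at 24 h, and the glutamate transporter Slc1a2 had -0.55 at 48 h and -0.67 at 24 h, in the authors' deposited table. Aqp4, the water channel of astrocyte endfeet, differed by 0.12. Kcnj10, the potassium channel of these cells, was the one member of both lists past 0.5, at -0.70, and its 3 values do not add up as defined further on.

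At 0.5 or higher lay 3.59% of all genes, and at -0.5 or lower 4.6%. Cytoskeleton genes had a median of 0.01 over 30, and their 3 members past 0.5 by the deposited TE values were all lower. They were the α-tubulins Tuba1b (-0.97) and Tuba1a (-0.91), which share much of their sequence, and Tmsb4x (-0.78), which codes for an actin-binding peptide. Neither tubulin adds up as defined further on, and footprints minus RNA would give -0.70 for Tuba1b and -0.30 for Tuba1a, which is not past 0.5. Tmsb4x had TE values of -0.57 at 48 h and 0.21 at 24 h in the authors' deposited table. Histones had a median of -0.36 over 9 measured genes, with 7 below 0. The replacement histone gene H3f3b stood at -0.67 at 48 h and 0.21 at 24 h, and H2afx, whose product marks DNA breaks, at 0.05 at 48 h and 0.72 at 24 h, in the authors' deposited table. Most replication-dependent histone mRNAs lack a poly(A) tail, and only those measured here are counted.

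Ferritin is translated under the control of iron. Its light chain gene Ftl1 showed little difference, with TE values of 1.25 at 48 h and 1.28 at 24 h in the authors' deposited table. Fth1 stood lower at 48 h, with 0.35 at 48 h and 0.60 at 24 h in the authors' deposited table. That difference of -0.25 was the lowest among mRNAs with iron-responsive elements. The 8 measured mRNAs with iron-responsive elements had a median of -0.03 and the 11 genes of polyamine synthesis one of -0.005, with Odc1 at -0.07 at both times in the authors' deposited table. NRF2 and redox genes had a median of -0.10 over 27, with the quinone reductase Nqo1 at -0.16 at 48 h and 0.24 at 24 h in the authors' deposited table. Glycolysis had the highest median of the pathway lists, 0.15 over 22 genes with 15 above 0. Of these genes 0 passed 0.5, where the share over all genes was 3.59%. Pfkp, a phosphofructokinase, had TE values of -0.26 at 48 h and -0.65 at 24 h in the authors' deposited table. Proteasome subunits had a median of 0.10 over 31 genes, and RNA lay below 0 in 30 of them. Their median RNA difference was -0.11, against -0.005 over all genes.

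Mitosis genes had a median of 0.08 over 35 and DNA replication genes one of 0.05 over 41. Of the replication genes, 6 lay at 0.5 or higher and 0 at -0.5 or lower, where the shares over all genes were 3.59% and 4.6%. Only 27 of the 41 have values that add up as defined further on, and Pole2 and Rpa3 among the 6 do not. With TE computed as footprints minus RNA, the median of the replication list was 0.02. Kif20a, a kinesin of late mitosis, had TE values of -0.26 at 48 h and -1.06 at 24 h, and the helicase subunit Mcm5 had 0.20 at 48 h and -0.36 at 24 h, in the authors' deposited table. Matrix glycoproteins had a median of 0.10 with 32 of 42 above 0. Collagens and their modifying enzymes had one of -0.03 over 40, although both lowest genes of the list, Col4a4 and Col4a3, passed -1. The share over all genes at -1 or lower was 0.647%.

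**Figure D4:**
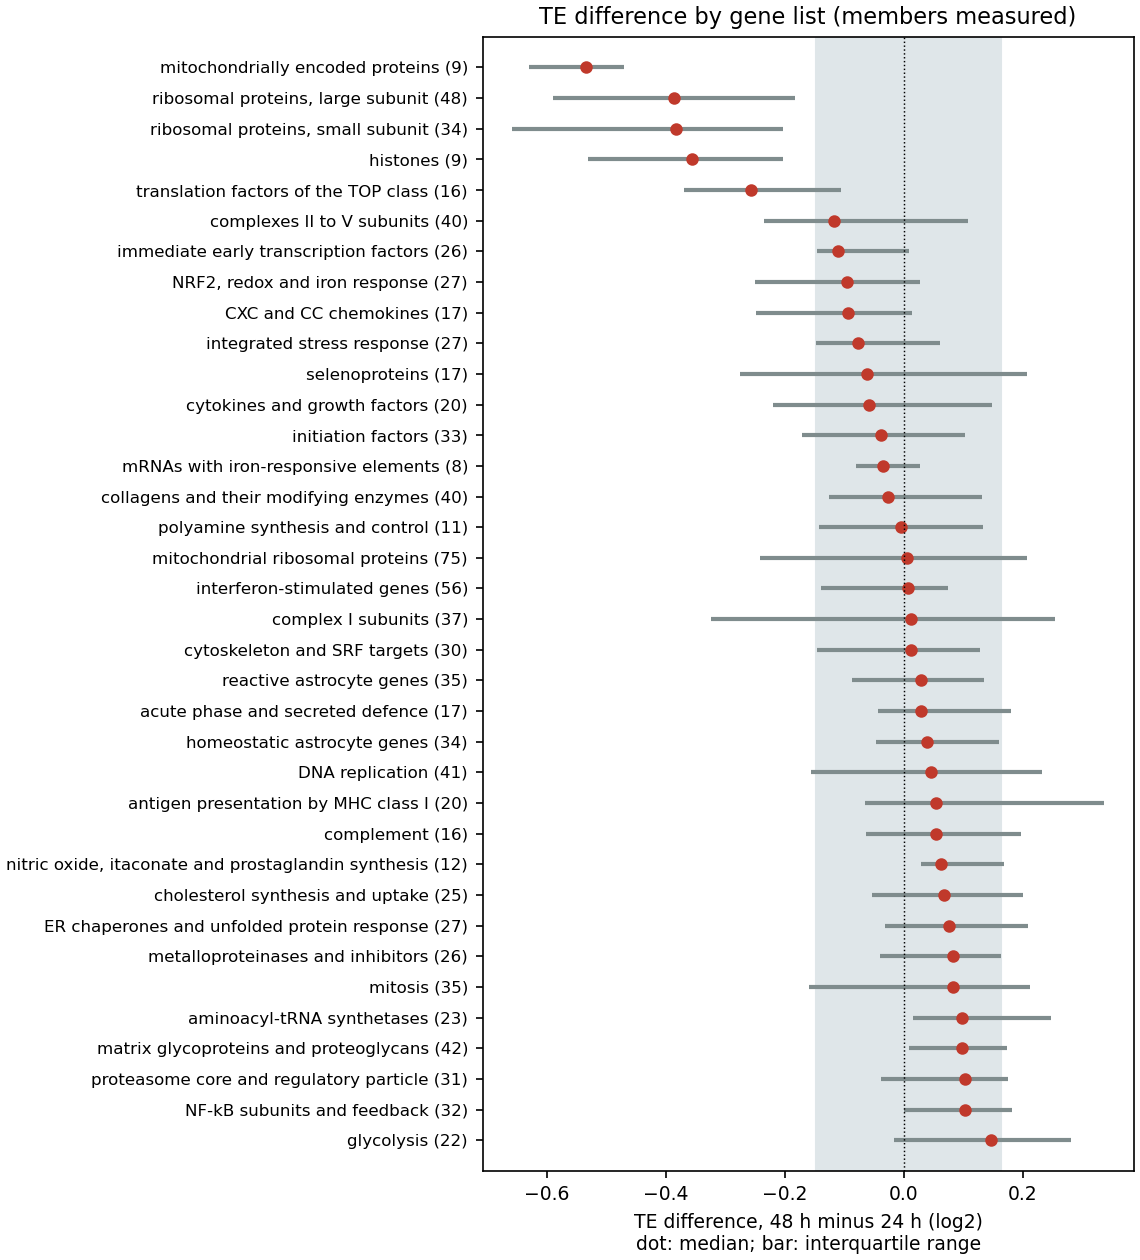
Median TE difference, 48 h minus 24 h (horizontal axis, log2), of each gene list with the interquartile range over its measured members, whose number stands in brackets. The shaded band runs between the quartiles of all genes, -0.15 and 0.16. Mitochondrially encoded proteins, both ribosomal subunits, histones and the list of TOP translation factors have medians left of the band, and the other lists have medians inside it.

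A TE value should equal the footprint value minus the RNA value, and the largest TE differences rarely met this. The deposited TE value lay within 0.1 of footprints minus RNA at both times in 8739 genes (71.6%). Among the 144 genes past 1 it did so in 14 (9.72%), and among the 999 past 0.5 in 233 (23.3%). The 3 farthest genes are of this kind: Mip, a lens water channel (4.58), Ttr, the thyroxine carrier (3.58), and Wscd2 (-3.88). Wscd2 had TE values of -2.34 at 48 h and 1.54 at 24 h in the authors' deposited table, where footprints minus RNA would give a difference of -1.71. With TE computed that way in every gene, 57 were higher and 61 lower by at least 1, of which 36 and 40 were among those called from the deposited TE values. The ribosomal protein result was smaller in this comparison but on the same side, with a median of -0.32 and 73 of 82 below 0, and with a median of -0.27 in the 55 members whose values add up. Long non-coding RNAs had a median of -0.24 by that computation and one of -0.22 in the 39 whose values add up.

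**Figure D5:**
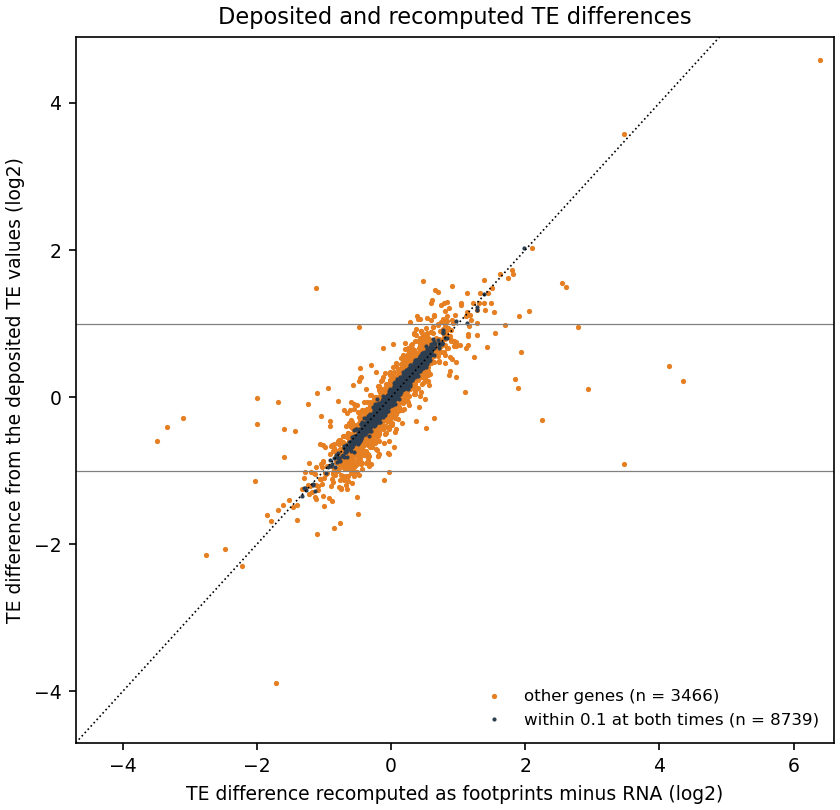
TE difference from the deposited TE values (vertical axis, log2) against that computed as footprints minus RNA (horizontal axis, log2), with 1 point per gene and grey lines at 1 and -1. Dark points are the 8739 genes whose values add up within 0.1 at both times, and of these 14 lie past 1 either way.

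Of genes whose values add up, 6 were higher at 48 h by at least 1 and 8 were lower. Sema5b, a semaphorin, had TE values of 0.68 at 48 h and -0.50 at 24 h in the authors' deposited table, beside an RNA difference of -1.81 and a footprint difference of -0.53. Cdh17, a cadherin, had an RNA difference of -1.40 and Dlk2, a relative of the Notch ligands, one of -1.19. Sarm1, an NAD-cleaving enzyme of axon degeneration, had footprints and RNA on opposite sides, with TE values of 0.46 at 48 h and -0.94 at 24 h in the authors' deposited table. Gpr158, an orphan receptor, differed by 2.21 in footprints and 0.92 in RNA, and by 1.22 in TE. Below 1 followed Wdr45, which acts in autophagy (0.91), Pcyt2 of phosphatidylethanolamine synthesis (0.89), Adamts18, a secreted metalloproteinase (0.87), and Eid1, an inhibitor of differentiation (0.81).

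The lowest gene whose values add up was Col4a3, a chain of basement membrane collagen on chromosome 1 from 82586921 to 82722059 (GRCm38.p6). Its TE value was -0.99 at 48 h and 0.36 at 24 h, and its footprint value -5.58 at 48 h and -2.87 at 24 h, in the authors' deposited table. Col4a4, its partner chain in the same collagen, had TE values of -2.33 at 48 h and -0.04 at 24 h in the authors' deposited table, which do not add up at both times. Mapk8ip2, a scaffold of JNK signalling, had -1.60 at 48 h and -0.36 at 24 h, and Slc24a4, a sodium-calcium exchanger, -1.30 at 48 h and -0.06 at 24 h, in the authors' deposited table. Both had RNA differences near 0 (0.06 and -0.20) and footprint differences below -1. Exo1, an exonuclease of DNA repair, and Gpr165, an orphan receptor, had RNA differences of 0.67 and 1.30, and TE differences of -1.27 and -1.28. Also past -1 were Nr4a3, a nuclear receptor (-1.18), and Rps15a, described above. Genes far below untreated cells in both measures, such as Cdh17, Sema5b, Col4a3 and Nr4a3, rest on values whose counts are not known.

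Lower TE at 48 h came mainly with lower footprints. Of the 561 genes at -0.5 or lower, footprints were lower by at least 0.25 in 352 while RNA was not higher by that amount, RNA alone was higher by at least 0.25 in 114, both held in 61 and neither in 34. Among the 438 genes at 0.5 or higher, the corresponding counts were 214 with higher footprints alone, 136 with lower RNA alone, 59 with both and 29 with neither. TE is the difference of these measures, so its link to each is arithmetic. Across all genes, footprint and RNA differences were related at r = 0.606 and rho = 0.474, which describes genes and not replicates. TE differences showed little relation to the GC content of the promoter window (rho = 0.028, 9730 genes) or to gene span (rho = -0.017, 12154 genes). GC content was averaged where a gene had several windows.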

How the data were processed

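Cycloheximide, which halts cytosolic ribosomes, was present in the lysis buffer. Fragments of 26 to 34 nt left by RNase I were taken as footprints, and undigested lysate went into a stranded total RNA kit, per the labels' protocols. The molecule label reads polyA RNA, a conflict that could not be settled. The submitters' processing notes name TopHat2, featureCounts and the mm10 build. Their versions, the normalization and the way batches were combined are not given in the sources used here. For each gene the authors deposited log2 values against untreated cells in 6 columns, per the file headers. No scale is named for the TE columns, which were taken as log2 because 78.0% of genes at 48 h and 79.5% at 24 h lie within 0.1 of footprints minus RNA.

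Differences, counts and medians were computed with Python 3.11.15, pandas 2.3.3, numpy 2.4.6 and scipy 1.17.1, with no filter, and the counting was tested on simulated data. Because the files hold 1 value per gene and comparison, no test, SD or interval could be given, and depth and the precision it gives are unknown. Comparisons of 48 h and 24 h with untreated cells share the untreated libraries. These cancel in the difference only if each deposited value is a plain log2 ratio to them. That was assumed, since how the TE values were computed is not known. RefSeq entries (GRCm38.p6) were matched by symbol or synonym for 12154 genes. Genes named in the text were the 12 highest and 12 lowest TE differences among genes whose values add up, the 2 highest and 2 lowest such members of each of 41 lists, the genes on the authors' sheet of p-values and 18 single genes. Others (such as Malat1, Gas5, Neat1, the mitochondrial ribosomal RNAs, Rps20, Tuba1b, Kcnj10, Chac1, Mip, Ttr, Wscd2, Col4a4, Adgre1, Cd68 and the genes with printed sequences) were named after their values were seen. The gene lists, the biotype and start-sequence groups and the comparison itself were chosen with earlier results of these data known. Further deposited sheets were not used here, and some genes that the rule selects are not reported here. Alternatives were TE computed as footprints minus RNA, only genes that add up, genes without extreme values, centring, other size thresholds and list means.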

Additional observations from a re-analysis of the deposited data

How the results depend on the processing

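No paired analysis was possible because the values combine batches A, B and C, and for the same reason no batch could be left out. Restricting the counts to genes whose values add up gave 6 genes higher and 8 lower by at least 1, and moving the size threshold gave 438 and 561 at 0.5 and 12 and 12 at 1.5, in place of 65 and 79. Computing TE as footprints minus RNA, leaving out genes past 5 in any column and centring on the median kept both counts within 1.5 times. Of the list medians, that of oligodendrocyte markers had the opposite sign as a mean (-0.043 in place of 0.125, over 7 genes). Lists closer to 0 also took the opposite sign as means: complex I (-0.02 in place of 0.01), mitochondrial ribosomal proteins (-0.03 in place of 0.01), cytoskeleton (-0.04 in place of 0.01) and endothelial and mural markers (0.01 in place of -0.07). Some changed sign under other settings too. Acute phase genes went to -0.02 in place of 0.03 without genes past 5, over 5 genes. Selenoproteins went to 0.01 in place of -0.06 with only genes that add up. Interferon-stimulated genes and mitochondrial ribosomal proteins lay just below 0 with TE computed as footprints minus RNA and with centring. With only genes that add up, the large ribosomal subunit moved to -0.27, and cytokines and growth factors to 0.05 in place of -0.06. Endothelial and mural markers moved to 0.09 with TE computed as footprints minus RNA, and microglia and macrophage markers to 0.26 in place of 0.13 without genes past 5. Depth and the spread between batches cannot be assessed, so a difference of any size may lie within replicate error.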

Other observations

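Markers of other cell types were few in the table. Of 20 microglia and macrophage markers 5 had a row, of 15 oligodendrocyte lineage markers 7, of 16 neuronal markers 6, of 14 endothelial and mural markers 7 and of 13 fibroblast and meningeal markers 11. Median TE differences were 0.13 for the microglia and macrophage list, 0.12 for oligodendrocyte, 0.15 for neuronal, -0.07 for endothelial and mural and -0.06 for fibroblast markers. The endothelial and mural median was 0.09 with TE computed as footprints minus RNA, and the microglia and macrophage median was 0.26 without genes past 5 in any column. Cd68, a lysosomal protein of phagocytes, had TE values of -0.11 at 48 h and -0.82 at 24 h in the authors' deposited table, and these values do not add up. Adgre1, the F4/80 antigen of macrophages, had an RNA difference of 6.98 and a footprint difference of 3.88 beside a TE difference of -0.28, which do not add up either. Tubb3, a neuronal tubulin, stood at 1.15 at 48 h and 0.45 at 24 h in TE in the authors' deposited table. The values of Tubb3 do not add up at either time.

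TE at 0.5 or higher at 48 h and at -0.5 or lower at 24 h was found in 11 genes, and the reverse in 13. Of these 24 genes, Sema5b alone had values that add up at both times.

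Selenoproteins, whose translation recodes a stop codon, had a median TE difference of -0.06 over 17 genes, with Selo at 0.31 at 48 h and -0.15 at 24 h and Sepp1 at -0.40 at 48 h and -0.07 at 24 h in the authors' deposited table. Cholesterol synthesis genes had a median of 0.07 over 25, although RNA lay below 0 in 24 of them and footprints in 21. Their median differences were -0.22 in RNA and -0.18 in footprints, against -0.005 and 0.003 over all genes. The mevalonate kinase gene Mvk had TE values of 1.02 at 48 h and 0.59 at 24 h in the authors' deposited table, and the thiolase gene Acat2 -0.53 at 48 h and -0.04 at 24 h. Metalloproteinases and their inhibitors had a median of 0.08 over 26, and immediate early transcription factors one of -0.11 over 26, with 18 below 0. Zfp36, an RNA-binding protein that speeds the decay of cytokine mRNAs, stood at 0.78 at 48 h and 0.28 at 24 h in the authors' deposited table, a difference of 0.51.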
